A study of Homo sapiens with 12 samples.

Results

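Beta-tubulin genes were followed in docetaxel-resistant prostate cancer cells and in the parental cells they were derived from. The 8 genes were TUBB, TUBB1, TUBB2A, TUBB2B, TUBB3, TUBB4A, TUBB4B and TUBB6, and every probe set that the array annotation gives to 1 of these symbols was taken, whatever its values. This gave 12 of the 22215 probe sets in a table of 8 arrays and 13 of the 54613 in a table of 4 arrays, which adds a second TUBB1 probe set. The names of 7 of them end in _x_at, which marks probe sets that can also bind other transcripts and are less specific, and the isotypes share most of their coding sequence. Another 1 probe set carries the symbols TUBB2A and TUBB2B together and was left out.

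Expression had been measured on Affymetrix arrays in 12 RNA samples of 4 groups. DU145-DR and 22Rv1-DR are the docetaxel-resistant lines, which were grown under docetaxel. DU145, a prostate carcinoma line from a brain metastasis, and 22Rv1, a line from a relapsed prostate carcinoma xenograft, are the sensitive parents and were grown without the drug. Each comparison of a resistant line with its parent therefore joins resistance with exposure to docetaxel, and these cannot be told apart. The sources used here do not say whether a resistant line is 1 clone or a pool, nor whether the replicates are separate cultures. Replicates 1 and 2 of each group are in the 8-array table, and replicate 3 of each group is in the 4-array table. The tables come from different array types, so array type and replicate 3 cannot be told apart.

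Beta-tubulin pairs with alpha-tubulin, and these dimers polymerise into microtubules, which form the mitotic spindle and the tracks of intracellular transport. Docetaxel, a taxane, binds beta-tubulin inside the microtubule wall and blocks its disassembly, so that dividing cells arrest in mitosis. The isotypes are products of separate genes and differ mainly in their C-terminal tails. TUBB and TUBB4B are made in most tissues, TUBB2A, TUBB2B, TUBB3 and TUBB4A are abundant in the nervous system, TUBB6 is widely expressed at low levels, and TUBB1 belongs to the platelet lineage. High class III beta-tubulin, the product of TUBB3, has been linked with taxane resistance in several carcinomas.

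Of the 12 probe sets in the 8-array table, 10 from 6 genes were bright enough to be tested. A change is the resistant value minus the parental one in log2(intensity + 16), with the standard error from limma over 2 arrays per group, and a probe set passed where its p, adjusted by Benjamini-Hochberg over all 14923 tested, was under 0.05. In DU145-DR against DU145, 1 of the 10 passed, TUBB2A, which was higher, whereas 8.83% of all probe sets passed, 4.44% as higher and 4.39% as lower. In 22Rv1-DR against 22Rv1, 1 of the 10 passed, TUBB6, which was higher, whereas 4.07% of all probe sets passed, 2.16% as higher and 1.91% as lower. Beside these shares, 1 of 10 is no result about the family as a whole. The median change of the 10 was 0.24 in DU145-DR and -0.11 in 22Rv1-DR, against -0.01 and 0.01 over all probe sets tested. At an unadjusted p under 0.05, 2 of the 10 passed in DU145-DR and 1 in 22Rv1-DR.

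**Figure D1:**
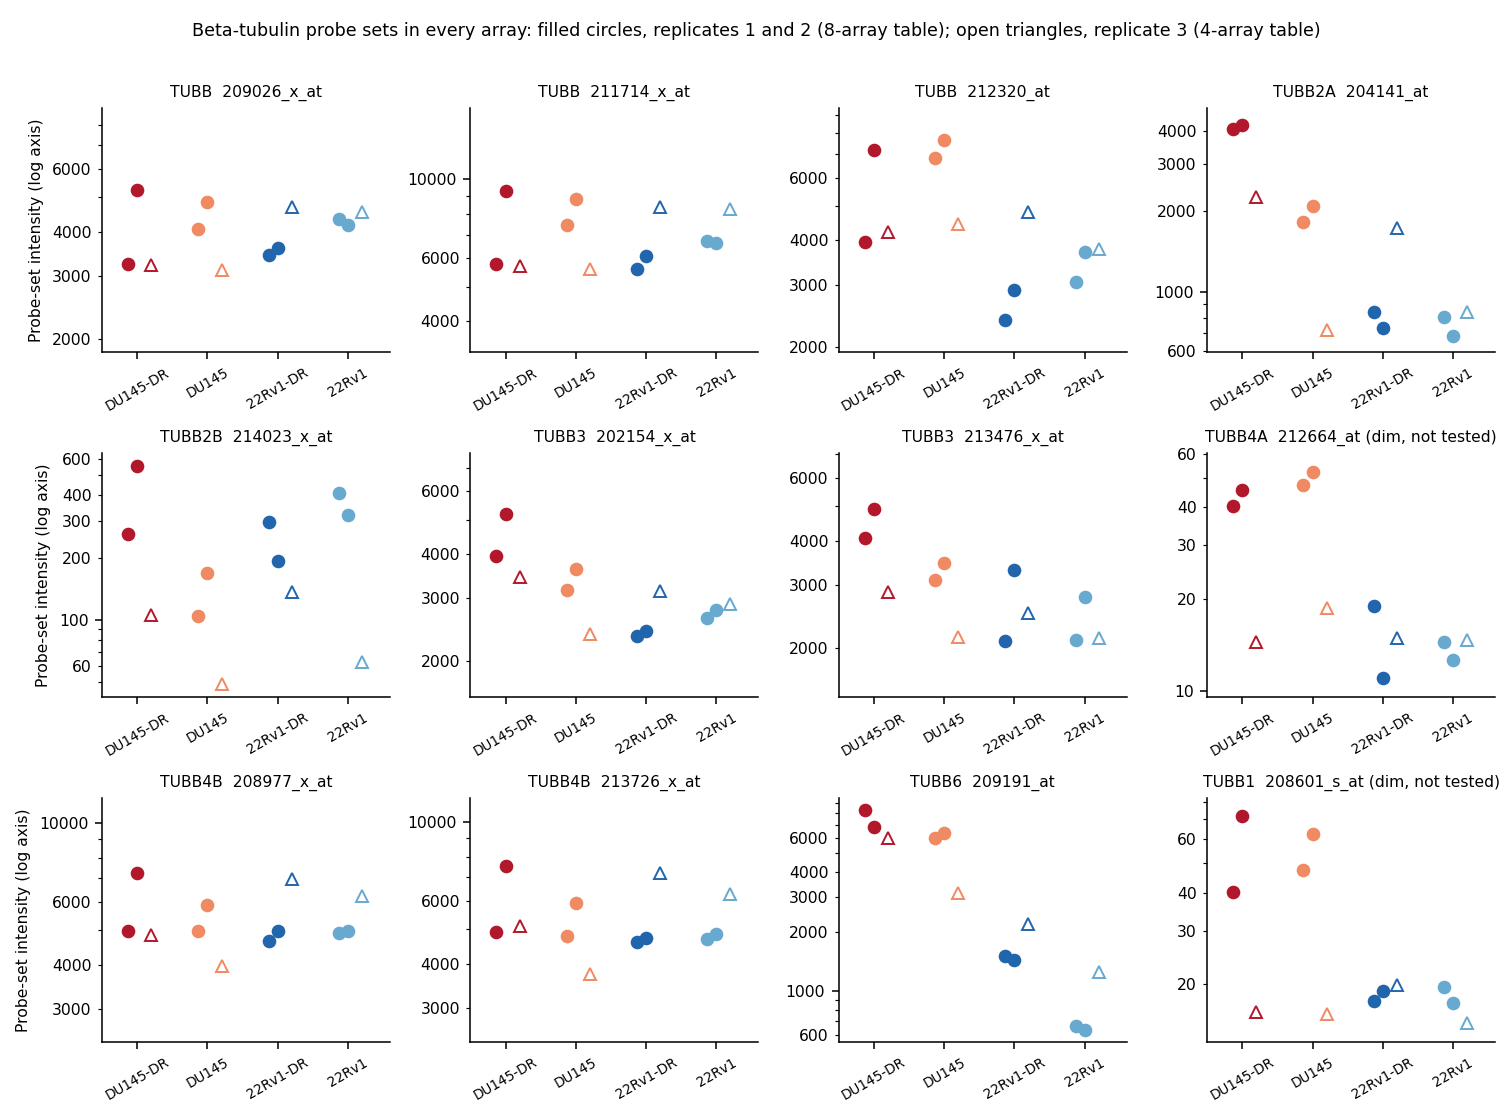
Probe-set intensity (log axis) of the 12 beta-tubulin probe sets of the 8-array table in DU145-DR, DU145, 22Rv1-DR and 22Rv1, 1 point per array, with replicates 1 and 2 as filled circles and replicate 3, from the other table, as open triangles. TUBB2A lies at 4068 and 4211 in DU145-DR, above 1820.3 and 2091 in DU145, and TUBB6 lies at 1499 and 1438 in 22Rv1-DR, above 662 and 635 in 22Rv1.

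TUBB2A (204141_at), a beta-tubulin abundant in neurons and present in many other cells, was about 2 times as bright in DU145-DR as in DU145. Its intensity was 4068, 4211 and 2257 in DU145-DR replicates 1, 2 and 3, against 1820.3, 2091 and 719 in DU145. Both DU145-DR arrays of the 8-array table were above both DU145 arrays, and the third DU145-DR array was above the third DU145 array. The change was 1.08 ± 0.19 (SE, n = 2 each), a 2.11-fold rise with a 95% interval of 0.64 to 1.52 on the log2 scale (limma, adjusted p = 0.0119), and the third pair differed by 1.63. The call was lost without DU145 replicate 1 (a change of 0.98, adjusted p = 0.0710) and when only the 4 DU145 and DU145-DR arrays were fitted (adjusted p = 0.0998) or 12 arrays with the table as a block (adjusted p = 0.118). The change stayed between 0.98 and 1.26 under all 20 alternatives run.

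In the 22Rv1 pair, the arrays of the 2 tables gave different values for TUBB2A. Its intensity was 843, 734 and 1734 in 22Rv1-DR, against 803, 685 and 838 in 22Rv1. Replicates 1 and 2 overlapped between the groups, with a change of 0.08 ± 0.19 (95% interval -0.36 to 0.52, adjusted p = 1.00), while the third 22Rv1-DR array was brighter by 1.04, a 2.05-fold difference from 1 array per group with no test. On the third pair, TUBB2A was past 2-fold on this scale in both lines, where 11.5% of 41091 probe sets were past 2-fold in DU145-DR (5.96% higher, 5.5% lower) and 4.18% in 22Rv1-DR (1.66% higher, 2.52% lower). The TUBB2A change in 22Rv1 minus that in DU145 was -0.996 ± 0.27 (adjusted p = 0.0716), which did not pass. It passed after quantile normalization (-1.06, adjusted p = 0.0414) and with a pseudocount of 64 (-0.98, adjusted p = 0.0405).

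TUBB2B (214023_x_at), a close relative of TUBB2A with a known part in the migration of neurons, was more variable between replicates, and its probe set is of the less specific kind. Its intensity was 261, 556 and 106 in DU145-DR, against 104, 169 and 48.8 in DU145. All DU145-DR arrays were above the DU145 arrays of the same table, and the 2 DU145-DR arrays of the 8-array table lay far apart. The change was 1.42 ± 0.38 (95% interval 0.55 to 2.29, adjusted p = 0.0561), which just missed the threshold, and the third pair differed by 0.91 (1.10 with a pseudocount of 1, which passes 2-fold). Left-out arrays moved it both ways: it was 1.94 without DU145-DR replicate 1 (adjusted p = 0.0124), 0.90 without DU145-DR replicate 2 (adjusted p = 0.145) and 1.11 without DU145 replicate 1 (adjusted p = 0.264). It also passed after quantile normalization (1.47, adjusted p = 0.0441), and in a fit of all 12 arrays with a block for each line and table, added after seeing the data (1.25, adjusted p = 0.0345), among 6 of 20 alternatives run.

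In the 22Rv1 pair TUBB2B had 298, 193 and 136 in 22Rv1-DR, against 410 (replicate 1), 322 (replicate 2) and 62.7 (replicate 3) in 22Rv1. Replicates 1 and 2 were lower in 22Rv1-DR and the third array was higher. The change was -0.57 ± 0.38 (95% interval -1.44 to 0.30, adjusted p = 0.657), and the third pair differed by 0.95 (1.11 with a pseudocount of 1). The change in 22Rv1 minus that in DU145 was -1.99 ± 0.54 (adjusted p = 0.0705), which passed with the dim filter at the 60th percentile (adjusted p = 0.0445) and without DU145-DR replicate 1 (-2.51, adjusted p = 0.0119).

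TUBB2A and TUBB2B lie near each other on chromosome 6, with 4 other genes between them in RefSeq, of which 3 are long non-coding RNAs and 1 is the pseudogene TUBB2BP1. Their promoters are shown because both genes were brighter in DU145-DR, of which only the TUBB2A difference passed. The 250 bases before each start are from RefSeq (GRCh38.p14), read 5′ to 3′ on the gene's strand. Capitals mark TATAAA on the gene's strand, and TGACG or CCAAT on either strand, so that the reverse complements CGTCA and ATTGG are also in capitals.
TUBB2A, chr6:3157545-3157794, minus strand: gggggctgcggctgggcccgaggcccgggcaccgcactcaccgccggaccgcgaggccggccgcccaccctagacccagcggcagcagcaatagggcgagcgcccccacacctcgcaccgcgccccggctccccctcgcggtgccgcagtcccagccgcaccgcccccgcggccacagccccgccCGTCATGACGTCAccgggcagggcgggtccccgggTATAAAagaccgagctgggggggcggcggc
TUBB2B, chr6:3227654-3227903, minus strand: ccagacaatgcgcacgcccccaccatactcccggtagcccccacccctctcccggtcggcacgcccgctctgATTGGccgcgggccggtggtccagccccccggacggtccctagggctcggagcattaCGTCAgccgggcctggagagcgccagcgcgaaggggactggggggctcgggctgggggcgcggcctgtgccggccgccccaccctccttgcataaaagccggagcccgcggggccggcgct
The TUBB2A window holds TATAAA 30 bases before the start and the full cAMP response element letters TGACGTCA 60 bases before it, 3 TGACG matches in all, of which 2 overlap, and no CCAAT. The TUBB2B window holds 1 TGACG match and 1 CCAAT match, at 121 and 178 bases before the start, and neither TATAAA nor TGACGTCA. Over the same 250 bases of 35116 RefSeq promoters, 6.80% held TATAAA, 1.65% TGACGTCA, 21.2% TGACG and 32.0% CCAAT. The motifs were chosen after the sequences had been seen, and a match says nothing of binding in these cells.

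TUBB6 (209191_at), a divergent beta-tubulin whose forced expression is known to destabilise microtubules in cultured cells, was about 2 times as bright in 22Rv1-DR as in 22Rv1. Its intensity was 1499, 1438 and 2195 in 22Rv1-DR, against 662, 635 and 1252 in 22Rv1. The 22Rv1-DR arrays were above the 22Rv1 arrays in both tables, and replicates 1 and 2 lay close together. The change was 1.16 ± 0.19 (SE, n = 2 each), a 2.24-fold rise with a 95% interval of 0.74 to 1.58 on the log2 scale (limma, adjusted p = 0.00991), and the third pair differed by 0.80. The change kept to between 1.04 and 1.19 under all 20 alternatives run, but its adjusted p moved above 0.05 without any 1 of the 4 arrays of the pair: without 22Rv1-DR replicate 1 (0.103) or 2 (0.0878), and without 22Rv1 replicate 1 (0.104) or 2 (0.118). It was 0.0512 after quantile normalization, 0.373 over 12 arrays with the table as a block, 0.0102 when only the 4 arrays of the pair were fitted and 0.00548 over 12 arrays with a block for each line and table.

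In DU145, where TUBB6 was already bright, its intensity was 8306, 6841 and 5955 in DU145-DR, against 5997, 6339 and 3126 in DU145. The DU145-DR arrays were above the DU145 arrays of the same table, by less than in 22Rv1 for replicates 1 and 2. The change was 0.29 ± 0.19 (95% interval -0.14 to 0.71, adjusted p = 0.451), while the third pair differed by 0.93, a 1.90-fold difference. The change in 22Rv1 minus that in DU145 was 0.87 ± 0.26 (adjusted p = 0.0982), which did not pass. Over 12 arrays with a block for each line and table, the DU145 change was 0.50 ± 0.18 (adjusted p = 0.0754).

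The TUBB6 promoter at the start that holds the motifs is given for comparison with the TUBB2A window, with capitals for the same motifs. RefSeq (GRCh38.p14) lists another start upstream, whose 250 bases hold none of the motifs searched.
TUBB6, chr18:12307991-12308240, plus strand: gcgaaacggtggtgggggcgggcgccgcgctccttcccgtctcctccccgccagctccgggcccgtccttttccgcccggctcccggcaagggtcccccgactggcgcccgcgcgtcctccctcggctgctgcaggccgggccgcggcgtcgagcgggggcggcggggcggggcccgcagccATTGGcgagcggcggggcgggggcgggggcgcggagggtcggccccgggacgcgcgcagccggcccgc
This window holds CCAAT on the minus strand 68 bases before the start and matches neither the TATA box nor the cAMP response element letters. It holds 6 GC boxes (GGGCGG on either strand, not in capitals), the TUBB2A window holds 5 and the TUBB2B window holds 1. At least 1 was found in 42.6% of all promoters, a share that says nothing of how many each held. Its GC content was 83.6%, against 79.2% for TUBB2A and 75.2% for TUBB2B.

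TUBB3, the neuronal class III isotype, had 2 probe sets, both named _x_at. The first (202154_x_at) had 3956, 5185 and 3444 in DU145-DR, against 3169, 3641 and 2385 in DU145. The second (213476_x_at) had 4068, 4905 and 2876 in DU145-DR, against 3104, 3468 and 2149.8 in DU145. All DU145-DR arrays were above the DU145 arrays of the same table on both probe sets. The changes were 0.41 ± 0.20 (95% interval -0.05 to 0.88, adjusted p = 0.286) and 0.44 ± 0.26 (-0.16 to 1.05, adjusted p = 0.405), which did not pass, and the third pair differed by 0.53 and 0.42.

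In 22Rv1 the TUBB3 values were closer together. The first probe set had 2353, 2435 and 3148 in 22Rv1-DR, against 2647, 2778 and 2896 in 22Rv1. The second had 2091, 3304 and 2504 in 22Rv1-DR, against 2106, 2778 and 2135 in 22Rv1. The first was lower in 22Rv1-DR on replicates 1 and 2 and higher on the third array, and the second overlapped between the groups. The changes were -0.18 ± 0.20 (95% interval -0.64 to 0.28, adjusted p = 0.929) and 0.12 ± 0.26 (-0.49 to 0.72, adjusted p = 1.00), with third-pair differences of 0.12 and 0.23.

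Neuronal and neuroendocrine markers were read beside these isotypes. Of 13 neuronal and neuroendocrine markers on the array, 8 were bright enough to be tested, and in DU145-DR 2 rose and none fell, with a median of 0.14, beside 8.83% of all probe sets that passed (4.44% higher). ENO2, the neuronal enolase, had 357, 134 and 86.8 in DU145-DR, against 622, 564 and 261 in DU145 (-1.36 ± 0.37, adjusted p = 0.0603). NEFL, the light neurofilament subunit, had 867, 1209 and 584 in DU145-DR, against 90.5, 83.3 and 52.3 in DU145 (3.34 ± 0.21, adjusted p = 8.28e-05). NEFM, the medium subunit, rose by 1.43 ± 0.29 (adjusted p = 0.0204). That call was lost without either DU145 array or without DU145-DR replicate 1. It was also lost when only the 4 arrays of the pair were fitted (adjusted p = 0.103). The summed intensity of the 13 was 1228 to 2909 in DU145-DR and 689 to 1947 in DU145, while CHGA, SYN1, STMN2, INSM1 and MAP2 were too dim to be tested. In 22Rv1-DR 1 of the 8 rose and none fell, with a median of -0.09, beside 4.07% of all probe sets that passed (2.16% higher). The riser was the synaptic gene SNAP25, at 1.49 ± 0.31 (adjusted p = 0.0329, a call lost without any 1 of 6 arrays), with a third-pair difference of 0.03. The other tested markers did not pass, with changes from -0.66 (ENO2) to -0.01 (DCX). On the third pair they differed by between -2.18 (CHGB) and 0.31 (NEFM). The part of these changes in the TUBB2A, TUBB2B and TUBB3 values was not tested.

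TUBB, the main isotype of dividing cells, had 3 probe sets, and none of them passed in either line. The most specific by its name (212320_at) had 3956, 7181 and 4211 in DU145-DR, against 6794, 7643 and 4451 in DU145. It had 2385, 2896 and 4804 in 22Rv1-DR, against 3061, 3717 and 3769 in 22Rv1. DU145-DR replicate 1 stood low and replicate 2 lay within the DU145 range, and the 22Rv1-DR arrays were lower on replicates 1 and 2 but higher on replicate 3. The changes were -0.43 ± 0.29 (95% interval -1.10 to 0.23, adjusted p = 0.476) in DU145-DR and -0.36 ± 0.29 (-1.02 to 0.30, adjusted p = 0.778) in 22Rv1-DR, and the third pairs differed by -0.08 and 0.35. The DU145-DR change ranged from -0.86 (adjusted p = 0.0565) to -0.005 with 1 array left out.

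The other TUBB probe sets, 209026_x_at and 211714_x_at, differed by -0.11 ± 0.25 and -0.14 ± 0.25 in DU145-DR and by -0.27 ± 0.25 and -0.19 ± 0.25 in 22Rv1-DR. The third pairs differed for them by between 0.02 and 0.05 in both lines. Over all 12 arrays the first ranged from 3126 to 5221 and the second from 5595 to 9281. In DU145-DR all 3 TUBB probe sets were dimmer on replicate 1 than on replicate 2, at 3236 and 5221 for 209026_x_at and at 5793 and 9281 for 211714_x_at. The sign of the change for these last probe sets turned without DU145-DR replicate 1, to 0.23 and 0.19.

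TUBB4B, a ubiquitous isotype that is also found in cilia, was nearly level on both of its probe sets. The first (208977_x_at) had 4973, 7231 and 4837 in DU145-DR, against 4973, 5873 and 3956 in DU145. It had 4673, 4973 and 6985 in 22Rv1-DR, against 4905, 4973 and 6252 in 22Rv1. The second (213726_x_at) had 4905, 7538 and 5113 in DU145-DR, against 4771, 5914 and 3743 in DU145, and 4608, 4738 and 7181 in 22Rv1-DR, against 4705, 4837 and 6295 in 22Rv1. In the 8-array table the groups overlapped or shared a value in each line on both probe sets. The changes of the 2 probe sets were 0.15 ± 0.22 and 0.19 ± 0.24 in DU145-DR (95% intervals -0.36 to 0.66 and -0.36 to 0.74), and -0.03 ± 0.22 and -0.03 ± 0.24 in 22Rv1-DR (-0.55 to 0.48 and -0.58 to 0.52). The third pairs differed by 0.29 and 0.45 in DU145 and by 0.16 and 0.19 in 22Rv1.

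TUBB4A and TUBB1 were near the floor of the arrays and were not tested. TUBB4A (212664_at), a brain isotype of myelinating cells, had 40.5, 45.6 and 14.4 in DU145-DR, against 47.5, 52.3 and 18.6 in DU145. It had 19.0, 11.0 and 14.9 in 22Rv1-DR, against 14.4, 12.6 and 14.7 in 22Rv1. TUBB1 (208601_s_at) had 40.2, 71.5 and 16.1 in DU145-DR, against 47.5, 62.7 and 15.9 in DU145, and 17.6, 18.9 and 19.8 in 22Rv1-DR, against 19.6, 17.3 and 14.8 in 22Rv1. The second TUBB1 probe set (230690_at), on the third arrays alone, had 22.9 in DU145-DR and 23.1 in DU145, and 18.8 in 22Rv1-DR and 22.3 in 22Rv1. TUBB4A was lower in the DU145-DR arrays than in the DU145 arrays of the same table, at values near the floor. As these probe sets were left out of the main fit, no difference is claimed for them. Of the 5 megakaryocyte and platelet markers, 0 to 2 were above the median of the array.

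**Figure D2:**
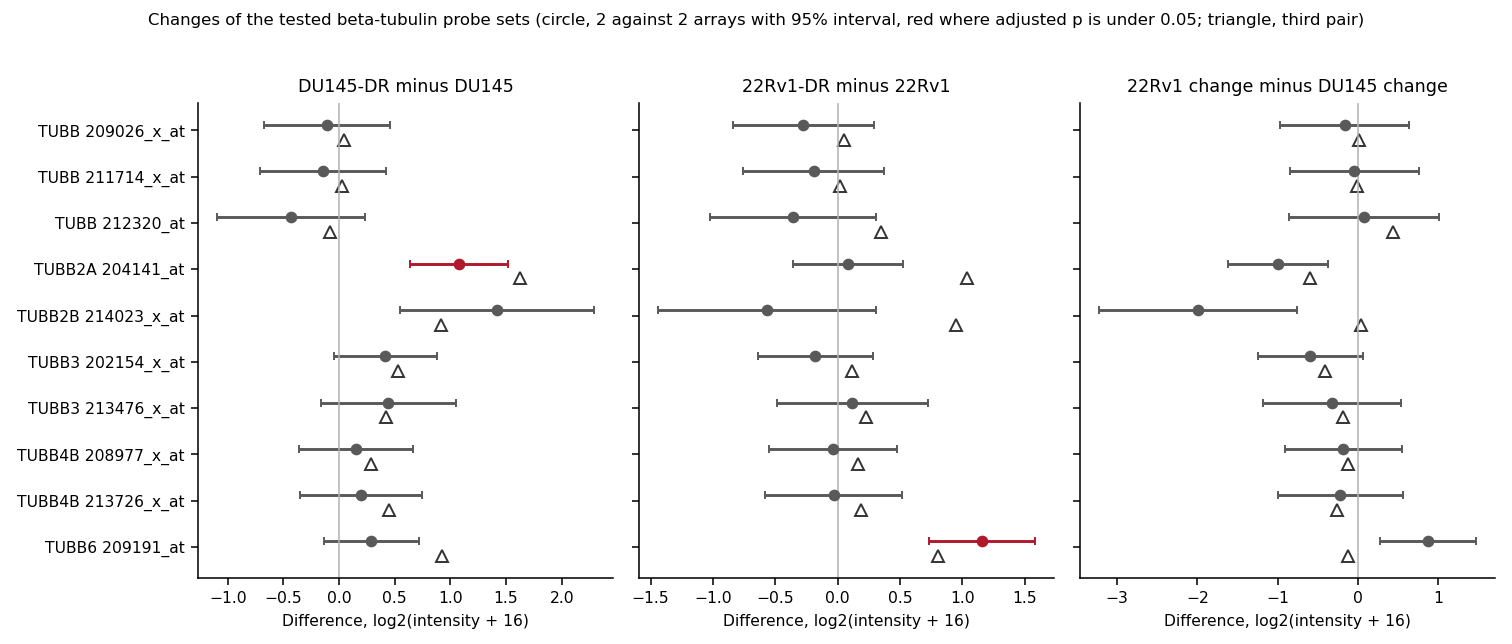
Differences on the log2(intensity + 16) scale for the 10 tested beta-tubulin probe sets in DU145-DR minus DU145 (left), 22Rv1-DR minus 22Rv1 (middle) and the 22Rv1 change minus the DU145 change (right). Circles are limma estimates from 2 arrays per group with 95% intervals, red for TUBB2A at 1.08 in DU145 and TUBB6 at 1.16 in 22Rv1, which passed, and triangles are the third arrays, 1 per group.

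For the difference between the lines' changes, 0 of the 10 probe sets passed in limma, against 6.44% of all probe sets (3.54% higher and 2.89% lower in 22Rv1). TUBB2A, TUBB2B and TUBB6 were the 3 with an unadjusted p under 0.05, and an adjusted p of 0.0705 to 0.0982. On the third arrays these same 3 genes were brighter in both resistant lines, by 0.80 to 1.63. Fitting all 12 arrays with a block for each line and table left the differences between lines at -0.86 for TUBB2A, -1.31 for TUBB2B and 0.54 for TUBB6, and their adjusted p was 0.0994, 0.132 and 0.211.

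The parental lines were then compared, 22Rv1 minus DU145. In the 8-array table the dimmest signals were lower in the 22Rv1-DR and 22Rv1 arrays, with a 5th percentile of 11.5 to 12.3, than in the DU145-DR and DU145 arrays at 35.8 to 38.6. On this scale 83.5% of all probe sets passed, 3.34% as higher in 22Rv1 and 80.2% as lower, with a median of -1.34. Quantile normalization brought the median to 0.02, and the third arrays gave -0.01. As deposited, 4 of the 10 beta-tubulin probe sets passed: TUBB2B was higher in 22Rv1, and TUBB6, TUBB2A and TUBB 212320_at were lower.

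TUBB6 was the one beta-tubulin lower in 22Rv1 under each scaling and on the third arrays. Its position among all probe sets was the 85.5th, 85.2nd and 94.3rd percentile in 22Rv1, against the 97.3rd, 96.5th and 98.1st in DU145. The difference was -3.22 ± 0.19 as deposited (9.31-fold lower, adjusted p = 4.09e-06), -2.08 after quantile normalization (adjusted p = 0.000669), and -1.31 on the third arrays. The direction held in all of these, and the size fell by over 1 unit of log2 after normalization.

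TUBB2B was higher in 22Rv1 by 1.35 ± 0.38 as deposited (adjusted p = 0.00977), by 2.79 after quantile normalization (adjusted p = 0.00104), and by 0.28 on the third arrays. Without 22Rv1 replicate 1 or DU145 replicate 1 it did not pass as deposited (adjusted p = 0.0529 and 0.0730). For TUBB2A and TUBB 212320_at the lower values in 22Rv1 did not hold: they were -1.38 and -1.09 as deposited, but -0.10 and -0.11 after quantile normalization (adjusted p = 0.665 and 0.699), and 0.22 and -0.24 on the third arrays. The _x_at probe sets of TUBB, TUBB3 and TUBB4B were between -0.44 and -0.06 as deposited and turned to between 0.57 and 0.96 after quantile normalization. On the third arrays these _x_at probe sets differed by 0.54 and 0.56 for TUBB, 0.28 and -0.01 for TUBB3, and 0.66 and 0.75 for TUBB4B, with no test. For TUBB and TUBB4B these _x_at values had the sign found after quantile normalization, not that of the deposited values. TUBB 212320_at was lower on the third arrays. The sign thus depended on the scaling or the probe set, and no order of these isotypes between the parental lines is claimed.

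**Figure D3:**
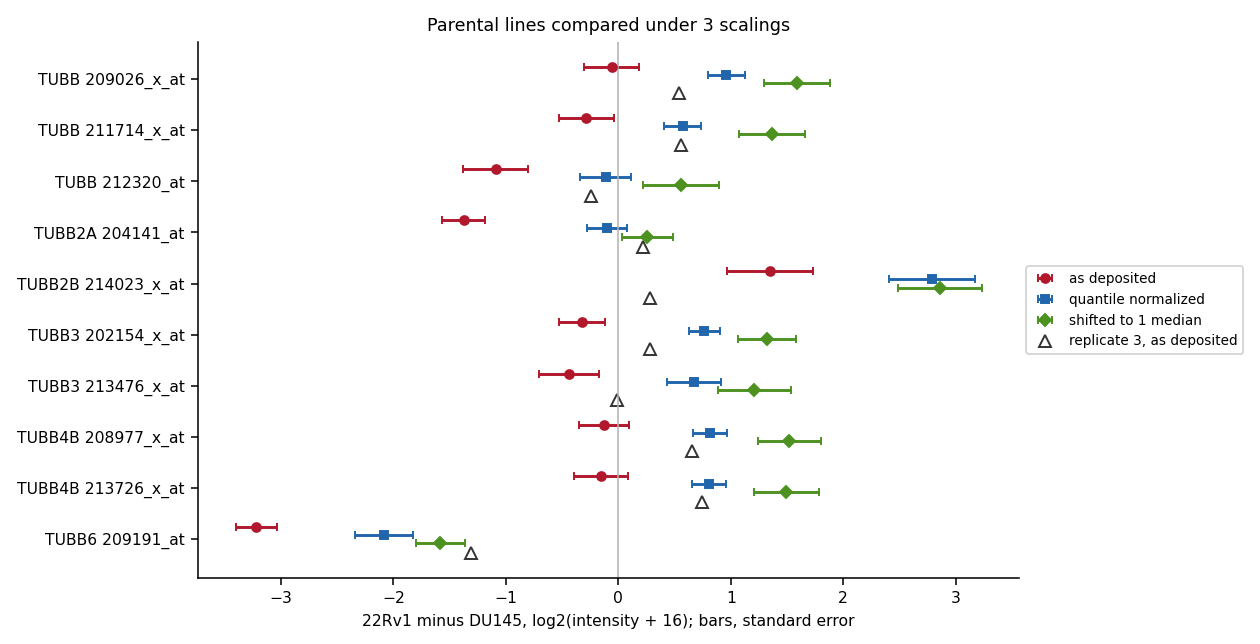
Difference 22Rv1 minus DU145 on the log2(intensity + 16) scale for the 10 tested beta-tubulin probe sets, as deposited, after quantile normalization, after a shift to 1 median (bars, standard error), and on the third arrays (triangles). TUBB6 stays left of 0, at -3.22 as deposited and -1.31 on the third arrays, and most others change side with the scaling.

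Genes of related function were described by count, with 1 probe set per gene. Of 9 tested alpha and other tubulins, 1 rose and none fell in DU145-DR, and none passed in 22Rv1-DR, beside 8.83% and 4.07% of all probe sets, so that the count is no result about the list. That gene was TUBA1A, an alpha-tubulin abundant in developing neurons, which had 6123, 8780.0 and 3743 in DU145-DR, against 1399, 1820.3 and 1361 in DU145. It had 4330, 5008 and 5914 in 22Rv1-DR, against 4270, 4608 and 5330 in 22Rv1. The DU145-DR arrays were all above the DU145 arrays. DU145-DR replicates 1 and 2 were also above the 22Rv1-DR and 22Rv1 arrays of the same table, though levels cannot be set across lines in that table. The third DU145-DR array (3743) was below the third arrays of 22Rv1-DR (5914) and 22Rv1 (5330). The change was 2.19 ± 0.24 in DU145-DR (adjusted p = 0.00125) and 0.07 ± 0.24 in 22Rv1-DR (adjusted p = 1.00), and their difference was -2.12 ± 0.34 (adjusted p = 0.00901, and at most 0.0527 without 1 array: the call was lost without 22Rv1 replicate 2 or 22Rv1-DR replicate 1). The median change of the 9 was 0.15 in DU145-DR and 0.02 in 22Rv1-DR.

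None of the 20 tested genes of tubulin folding, the chaperonin and cofactor genes that fold and assemble the dimer, passed in either line, with changes between -0.63 and 0.37 in DU145-DR and between -0.53 and 0.29 in 22Rv1-DR. None of the 12 tested tubulin-modifying enzymes passed either, with changes between -0.60 and 0.38 in DU145-DR and between -0.66 and 0.82 in 22Rv1-DR. Their medians were 0.12 and -0.05 in DU145-DR and 0.07 and -0.03 in 22Rv1-DR, against -0.01 and 0.01 over all probe sets. Of all probe sets, 8.83% passed in DU145-DR and 4.07% in 22Rv1-DR. A count of none in lists of this size is therefore no result about them.

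Of 27 tested genes of microtubule-binding proteins, 1 rose and 1 fell in each resistant line. These counts are near the shares of all probe sets, 8.83% in DU145-DR and 4.07% in 22Rv1-DR, and are no result about the list. In DU145-DR, MAP7D1, of a family that recruits kinesin to microtubules, rose by 1.14 ± 0.24 (adjusted p = 0.0216, and 1.51 on the third pair), and its call was lost without either DU145 array or without DU145-DR replicate 1 (adjusted p up to 0.109). MTUS1, a microtubule-associated tumour suppressor, had 49.2, 42.2 and 19.4 in DU145-DR, against 955, 1068 and 1351 in DU145, a change of -4.06 ± 0.21 (adjusted p = 2.99e-05) to a value near the floor of the arrays. In 22Rv1-DR, CSPP1, a centrosome and spindle pole protein, had 1992, 832 and 1243, against 345, 219.8 and 292 in 22Rv1. Its change was 2.16 ± 0.39 (adjusted p = 0.0171, and up to 0.139 without 22Rv1 replicate 2 or 22Rv1-DR replicate 1). MAP1B, a neuronal microtubule-stabilising protein, had 288, 247 and 100.4 in 22Rv1-DR, against 1458, 1278 and 362 in 22Rv1 (-2.29 ± 0.22, adjusted p = 0.000693). STMN1, MAP4 and MAPT did not pass in either line.

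**Figure D4:**
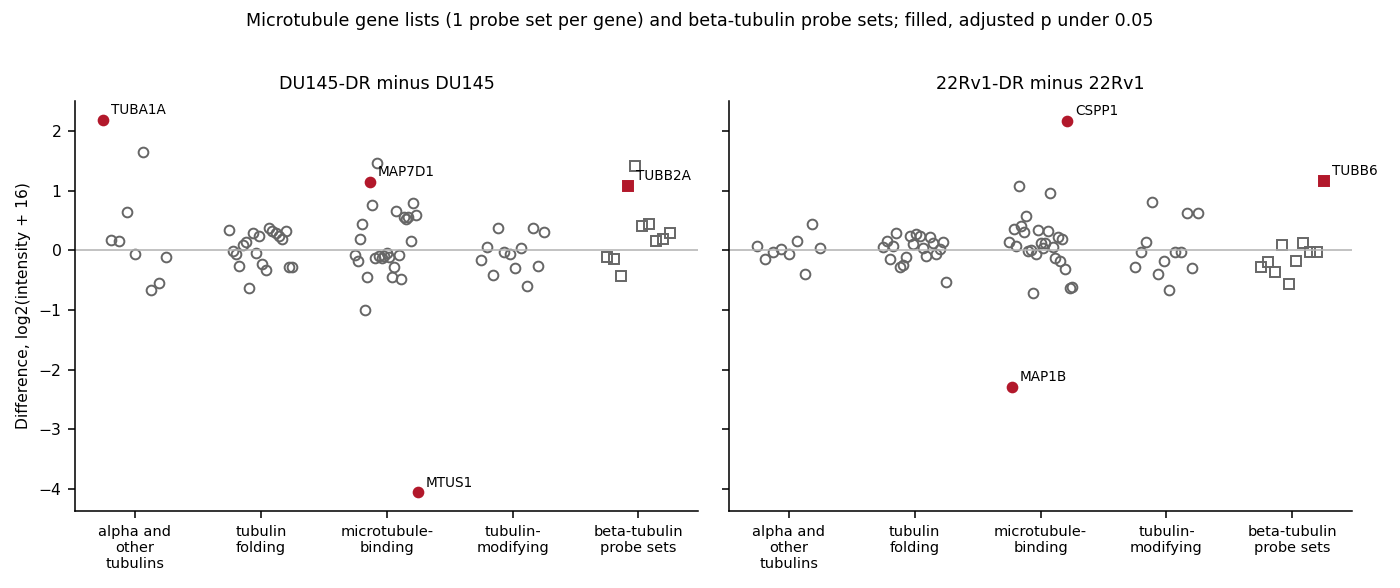
Resistant minus parental difference on the log2(intensity + 16) scale, DU145-DR minus DU145 on the left and 22Rv1-DR minus 22Rv1 on the right, for 4 gene lists (circles, 1 probe set per gene) and the beta-tubulin probe sets (squares), filled where the adjusted p was under 0.05. TUBA1A at 2.19, MAP7D1 at 1.14, MTUS1 at -4.06 and TUBB2A at 1.08 are filled in DU145, and CSPP1 at 2.16, MAP1B at -2.29 and TUBB6 at 1.16 in 22Rv1.

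The labelled cell types were checked against their markers. All 5 epithelial markers were above the array median in DU145, 22Rv1-DR and 22Rv1, and 3 or 4 were in DU145-DR, where the adhesion gene CDH1 lay at the floor (38.6 and 40.2, against 2369 and 3641 in DU145). The summed intensity of the 5 was 8563 to 10161 in DU145-DR and 19794 to 25101 in DU145, and 8183 to 13039.7 in 22Rv1-DR and 13568 to 18395 in 22Rv1. Of the 5, 4 fell in DU145-DR, beside 4.39% of all probe sets, and 2, CDH1 and KRT19, fell in 22Rv1-DR, beside 1.91%. The DU145-DR call of KRT18 (adjusted p = 0.0258) was lost without any 1 of 5 arrays (up to 0.128), with only the 4 arrays and with the table as a block. These falls were found in the same comparisons as the rises of TUBB2A and TUBB6. The part of the falls in those rises was not tested. In such bulk RNA, fewer cells of a type and less RNA per cell cannot be told apart. The androgen-responsive genes KLK3 and KLK2 were above the median in 22Rv1-DR and 22Rv1 and below it in DU145-DR and DU145. No leukocyte marker was above the median. Of the 6 stromal markers, 0 to 2 were above it in DU145-DR and DU145, 1 to 4 in 22Rv1-DR and 0 to 3 in 22Rv1. Of the 5 stromal markers tested, 1, LUM, rose in 22Rv1-DR (6.04 ± 0.23, adjusted p = 1.44e-05), beside 2.16% of all probe sets. The third arrays had 1698 in 22Rv1-DR and 729 in 22Rv1 for LUM, a difference of 1.20.

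The genes with the most similar pattern to the beta-tubulins that passed were found by Pearson's r over the 8 arrays after subtracting each line's mean. These arrays come from both lines and lie in the same table, and no p is given. For TUBB2A these were UBL3 (r = 0.993), PRKAR1A (0.992) and AKR1C2 (0.992), which differed in DU145-DR by 0.72, 0.94 and 3.71 and on the third pair by 0.81, 0.84 and 0.56. For TUBB6 they were IL13RA2 (0.996), CD2BP2 (0.989) and SP100 (0.989), which differed in 22Rv1-DR by 4.57, 0.48 and 1.83 and on the third pair by 3.64, 0.71 and 1.93. Of these, CD2BP2 did not pass in 22Rv1-DR (adjusted p = 0.234), and the DU145-DR calls of UBL3 (adjusted p = 0.0438) and PRKAR1A (0.0231) were lost without 1 array, UBL3 with any of 8 left out and PRKAR1A with any of 4. AKR1C2, a steroid-metabolising reductase, was higher by 1.54 in the third 22Rv1-DR array while its change on replicates 1 and 2 was 0.01, and TUBB2A differed between the tables in the same direction.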

How the data were processed

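The authors deposited processed, linear intensity values per probe set (7.52 to 31216 over 8 arrays, 6.73 to 30786 over the other 4), made with MAS5 and RMA per the submitters' processing notes, which give no role, order or version. The log2 of 100% of them has 2 decimals. The number of arrays, 2 per group in the tested table, limits the precision, and p-values measure the spread between these samples, which may be technical.

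Values were taken as log2(intensity + 16). The fit used limma 3.58.1 (lmFit, eBayes; R 4.3.3) on all 8 arrays, with 1 term per group and no block. The residual degrees of freedom were 4 and the prior ones 4.37. Probe sets with 1 gene symbol (19064) were tested where at least 1 group averaged above the 40th percentile of intensity (74.0), 14923 in all, with two-sided p-values and Benjamini-Hochberg adjustment. The 4-array table gave differences with no test. The fit was tested on simulated data.

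Named genes are all beta-tubulin probe sets, up to 4 members of each gene list past the threshold, and the 3 genes most alike to each beta-tubulin that passed. The members and lists were chosen with earlier results of these data known. Alternatives covered scaling, pseudocount, filter, probe-set choice, arrays fitted, blocks and leaving out each array. Promoter motifs were searched as exact matches in Python 3.11.15.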

Additional observations from a re-analysis of the deposited data

Results flagged for a closer look

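No beta-tubulin probe set had a change that differed between the lines in the test of the difference. Of the other genes named, 11 did, while 6.44% of all probe sets passed. These genes were named from these same arrays, by passing a comparison, by likeness to a beta-tubulin or after their values were seen. The count of 11 largely follows from that choice and is no result. Each is given as the 22Rv1 change minus the DU145 change on the log2 scale (limma, adjusted p over all probe sets). The tubulin genes among them were TUBA1A at -2.12 (adjusted p = 0.00901) and the pseudogene TUBBP5 at 2.61 (adjusted p = 0.00182). The microtubule-binding genes were MTUS1 at 3.45 (adjusted p = 0.000498) and MAP1B at -2.11 (adjusted p = 0.00626). Among the markers, the difference was 2.35 for CDH1 (adjusted p = 0.00471), 2.39 for EPCAM (adjusted p = 0.00311), -3.41 for NEFL (adjusted p = 0.000498) and 6.02 for LUM (adjusted p = 8.84e-05), which had 2778 and 3984 in 22Rv1-DR, against 28.8 and 41.9 in 22Rv1, in the 8-array table, and 1698 in 22Rv1-DR, against 729 in 22Rv1, in the 4-array table. Among the genes most alike to a beta-tubulin, it was -3.70 for AKR1C2 (adjusted p = 0.00102, a call lost in both 12-array fits, and the changes in the 4-array table, 1.54 in 22Rv1-DR and 0.56 in DU145-DR, differ the other way), 3.71 for IL13RA2 (adjusted p = 0.00281) and 1.57 for SP100 (adjusted p = 0.0212, up to 0.115 without 1 array).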

How the results depend on the processing

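The count of beta-tubulin probe sets past the threshold in DU145-DR against DU145 (1 as reported) was 2 after quantile normalization, with the dim filter at the 60th percentile, with 1 probe set per gene and over 12 arrays with a block for each line and table (chosen after seeing the data), and 0 with only the 4 arrays compared or over 12 arrays with the table as a block. Leaving out 1 array gave 0 to 2. In 22Rv1-DR against 22Rv1 (1 as reported) it was 0 after quantile normalization and with the table as a block, and 0 to 1 leaving out 1 array. For the difference of the changes (0 as reported) it was 1 after quantile normalization, with a pseudocount of 64 and with the 60th percentile filter, and 0 to 1 leaving out 1 array. For the parental lines (4 as reported) it was 7 after quantile normalization, 8 after a shift to 1 median, 2 with the table as a block, and 3 to 4 leaving out 1 array. The cause of these moves was not tested.

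The labels state no pairing of the replicate numbers. In the 8-array table, deviations from the group means correlated at 0.719 between DU145-DR and DU145 arrays of the same number and at 0.792 between 22Rv1-DR and 22Rv1, against 0.0784 to 0.109 across lines. With the replicate block, 4 beta-tubulin probe sets passed in DU145-DR (TUBB2A, TUBB2B and both of TUBB3), 2 in 22Rv1-DR (TUBB6, and TUBB2B at -0.57), 4 in the difference of changes (adjusted p = 0.0154 for TUBB6, 0.00564 for TUBB2A, 0.00257 for TUBB2B and 0.0265 for TUBB3 202154_x_at) and 5 between the parental lines, and the counts over all probe sets were 4921, 2940, 4313 and 13067 against 1318, 608, 961 and 12465.

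Other counts over all probe sets moved by more than 1.5 times. In DU145-DR they were 1994 after quantile normalization, 271 with only 4 arrays, 553 with the table as a block, 2826 with a block for each line and table, and 528 to 1776 leaving out 1 array. In 22Rv1-DR they were 1330 with only 4 arrays, 281 with the table as a block and 253 to 1001 leaving out 1 array. For the difference they were 1475, 340 and 1716 after quantile normalization, with the table as a block and with a block for each line and table, and 345 to 1427 leaving out 1 array. Between the parental lines they were 6514 after quantile normalization, 6345 after the median shift and 7260 with the table as a block. With 1 probe set per gene the count was 8144, but only 9779 probe sets were tested there, against 14923 as reported. Of the parental calls, 4% were higher in 22Rv1 as deposited, 52.3% after quantile normalization and 63.7% after the median shift.

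Signs turned for some changes that did not pass as reported, and for 2 parental differences that did. Between the parental lines, after quantile normalization and after the median shift, the values were 0.96 and 1.59 for TUBB 209026_x_at, 0.57 and 1.37 for TUBB 211714_x_at, 0.77 and 1.32 for TUBB3 202154_x_at, 0.67 and 1.21 for TUBB3 213476_x_at, 0.81 and 1.52 for TUBB4B 208977_x_at, and 0.81 and 1.495 for TUBB4B 213726_x_at. The median shift alone turned TUBB 212320_at to 0.56 and TUBB2A to 0.26. With the replicate block and with the table as a block, the parental values were 0.17 and 0.14 for TUBB 209026_x_at, 0.037 and 0.13 for TUBB4B 208977_x_at, and 0.057 and 0.15 for TUBB4B 213726_x_at. In 22Rv1-DR, TUBB4B 208977_x_at was 0.015 after quantile normalization and 0.030 in both 12-array fits, and TUBB4B 213726_x_at was 0.0084 and 0.043. In the difference of changes, TUBB 212320_at was -0.011 after the median shift. Leaving out 1 array in turn gave ranges that crossed 0. In DU145-DR these were -0.45 to 0.23 and -0.48 to 0.19 for TUBB 209026_x_at and 211714_x_at, and -0.12 to 0.42 and -0.11 to 0.50 for TUBB4B 208977_x_at and 213726_x_at. In 22Rv1-DR they were -0.029 to 0.20 for TUBB2A, -0.21 to 0.45 for TUBB3 213476_x_at and -0.080 to 0.010 for TUBB4B 208977_x_at. In the difference of changes they were -0.51 to 0.18, -0.38 to 0.29 and -0.35 to 0.50 for TUBB 209026_x_at, 211714_x_at and 212320_at, -0.65 to 0.0042 for TUBB3 213476_x_at, and -0.45 to 0.085 and -0.53 to 0.085 for the TUBB4B probe sets. Between the parental lines it was -0.18 to 0.065 for TUBB 209026_x_at.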

Other observations

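A beta-tubulin pseudogene outside the 8 genes, TUBBP5 (222361_at), was chosen after its values were seen. It had 93.7, 97.7 and 13.5 in DU145-DR, against 588, 516 and 151 in DU145, and 137, 115 and 143 in 22Rv1-DR, against 118, 87.4 and 108 in 22Rv1. The DU145-DR arrays were all below the DU145 arrays of the same table, and the 22Rv1-DR and 22Rv1 arrays overlapped in the 8-array table. The change was -2.34 ± 0.21 in DU145-DR (limma, adjusted p = 0.0005, and at most 0.0068 without 1 array), with a third-pair difference of -2.51. In 22Rv1-DR it was 0.27 ± 0.21 (adjusted p = 0.742), with a third-pair difference of 0.36. TUBBP5 fell in the same comparison in which TUBB2A rose. The other pseudogene on the array, TUBB7P, was too dim to be tested.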
